A study of Mus musculus with 2 samples.

Results

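The genes described here code for the proteins that detect DNA damage, halt the cell cycle in response and repair the lesion. They are the 33 protein-coding genes of the authors' table whose symbols belong to the Brca, Fanc, Rad, Xrcc, Msh, Mlh, Ercc, Parp, Chek, Lig, Ddb and Apex families or to a short set of single names such as Atm, Atr, Xpa and Xpc, out of 9388 protein-coding rows and 10627 rows in all. The choice rests on names, and it also takes in relatives with other main roles, namely the cohesin subunit Rad21 and 4 PARP enzymes (Parp8, Parp11, Parp12 and Parp14). RNA came from nephron progenitor cells of the embryonic mouse kidney at embryonic day 15.5, isolated by flow cytometry. The wild-type group (WT) was Six2CreGFP+;p53+/+ and the conditional knockout group (KO) was Six2CreGFP+;p53f/f, both on a mixed CD1 and C57BL background. Both groups carry the transgene that places Cre recombinase and GFP in Six2-expressing cells, and what sets them apart is Trp53, which codes for p53 and whose floxed alleles Cre removes in the KO cells. Each genotype has 1 library, and how many embryos went into it is not stated in the labels. No difference below has a replicate check, and no statistical test between genotypes was possible.

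Double-strand breaks activate the kinase ATM, while exposed single-stranded DNA at stalled replication forks activates the kinase ATR, which acts through the checkpoint kinase CHK1. Breaks are rejoined by homologous recombination, which copies the sister chromatid, or by end joining, while bulky adducts, damaged bases, mismatches and crosslinks each have a repair pathway of their own. p53 is a main effector of damage signalling and also activates the transcription of some repair genes, and embryonic progenitors, which divide quickly, depend on many of these genes during normal DNA replication.

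Values are read densities that behave as RPKM, a read count scaled by gene length and library depth, for a depth of about 91200000 reads in WT and about 85600000 in KO. Trp53 stood at 33.9 RPKM in WT against 5.38 in KO, which is the direction its label calls for. Of 16 nephron progenitor markers, 15 are in the table, 8 of them higher and 7 lower in KO. Six2 was at 482 RPKM in WT against 509 in KO. The markers that differed most downward were Cited1 at 23.6 and 16.1 RPKM, Hoxc11 at 25.1 and 17.5, and Osr1 at 69.2 and 52.95. Those that differed most upward were Itga8 at 20.05 and 25.7 RPKM, Eya1 at 66.8 and 84.1, and Dpf3 at 2.84 and 3.66. All but Six2 were named after their values were seen. Nearly all listed markers of other cells were lower in KO. All 11 listed leukocyte markers were lower (summed density 17.3 RPKM in WT against 2.82 in KO). So were all 12 endothelial (33.9 and 15.1 RPKM), all 12 stromal (302 and 137 RPKM) and 10 of 11 erythroid markers (659 and 56.9 RPKM). Gata1, listed at 0 in KO, was at only 0.036 RPKM in WT, and Tfrc was higher (28.1 and 33.0 RPKM). Among all protein-coding genes 63.7% were lower, and 72.1% of those with a mean density under 7.30 RPKM, the median of all listed genes. That median was passed by 0 of the leukocyte and 2 of the endothelial markers. The part of these cells in the values below was not tested, and less RNA per cell cannot be told apart from fewer cells of a type.

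Differences in the repair genes were small. On the log2(RPKM + 1) scale, 17 of the 33 were lower in KO and 16 higher, where 63.7% of all 9382 protein-coding symbols were lower and 36.3% higher. The median log2 difference was -0.033, against -0.11 over all protein-coding genes. None reached 1.5-fold in either direction, a size that 5.59% of protein-coding genes passed downward and 0.64% upward. At the smaller size of 0.32 on the log2 scale, 4 were lower (Xrcc3, Fancc, Rad51ap1 and Parp3), a share of 12.1% against 15.4%, and 1 was higher (Chek1), a share of 3.03% against 4.9%. The shares past either size lie near or below the background, so they are no result about the repair genes. The authors' table holds only genes with a corrected p-value under 0.05 in their own comparison of the libraries, so genes with nearly equal densities are missing from both the repair genes and the background. Of 87 names that the rule could match, 33 are in the table. Atm, Chek2, Brca1, Brca2, Ddb2, Polk and Polh are among the names not analysed here.

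The added 1 RPKM hides part of the difference of weakly expressed genes. On the plain ratio of densities, 3 genes were at least 1.5-fold lower in KO (Fancc, Parp3 and Parp14), or 9.09%, where 20.8% of protein-coding genes with reads in both libraries were, and 0 were at least 1.5-fold higher, against 2.92%. In the authors' deposited table, which scales the ratio by a further 1.04, 15 of the 33 were lower in KO, against 62.4% of protein-coding genes. The 2 genes that change direction with that scaling are Ddb1 and Parp1, which the authors' deposited table gives as 1.004-fold and 1.02-fold higher. Their densities differ so little that their direction depends on the scaling of the libraries.

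**Figure D1:**
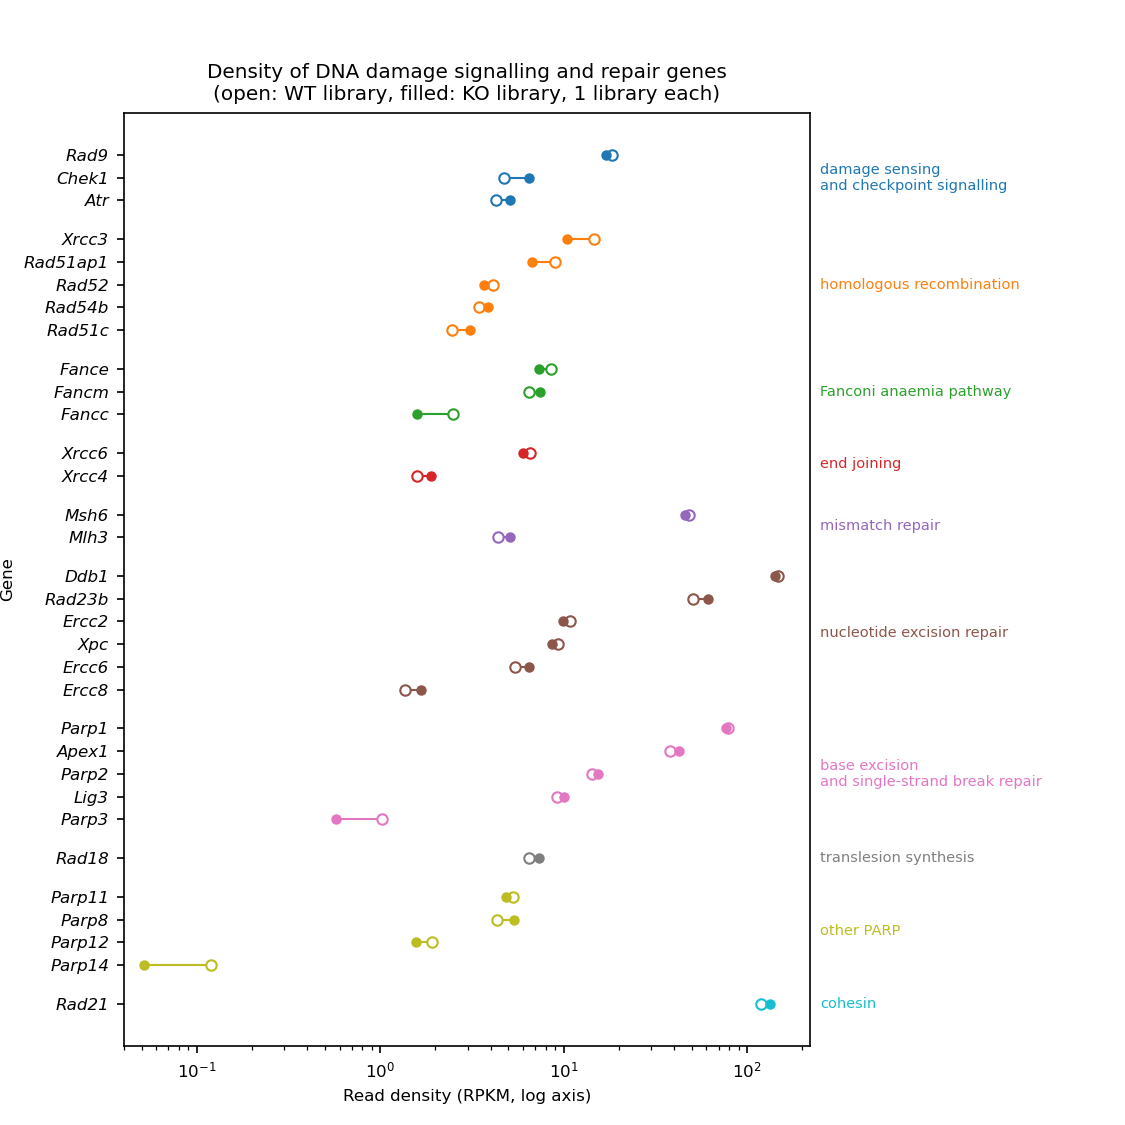
Read density of 32 of the 33 genes on a logarithmic axis in RPKM, grouped by role, with an open point for the WT library and a filled point for the KO library. Levels run from Parp14 (0.119 RPKM in WT) to Ddb1 (148 RPKM), and within each gene the points lie close together compared with the distances between genes.

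Levels differed far more between genes than between genotypes. In WT, Ddb1 was at 148 RPKM, Rad21 at 118, Parp1 at 78.3, Rad23b at 50.6, Msh6 at 48.2 and Apex1 at 38.1, and these 6 kept this order in KO. At the other end were Parp14 at 0.119, Parp3 at 1.02, Ercc8 at 1.37 and Xrcc4 at 1.58 RPKM. The floor used here, the median of all listed genes at 7.30 RPKM averaged over both libraries, was passed by 15 of the 33. Of those 15, 10 were lower in KO, where 55.6% of protein-coding genes over the floor were lower. Of the 18 under the floor, 7 were lower, where 72.1% were lower.

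**Figure D2:**
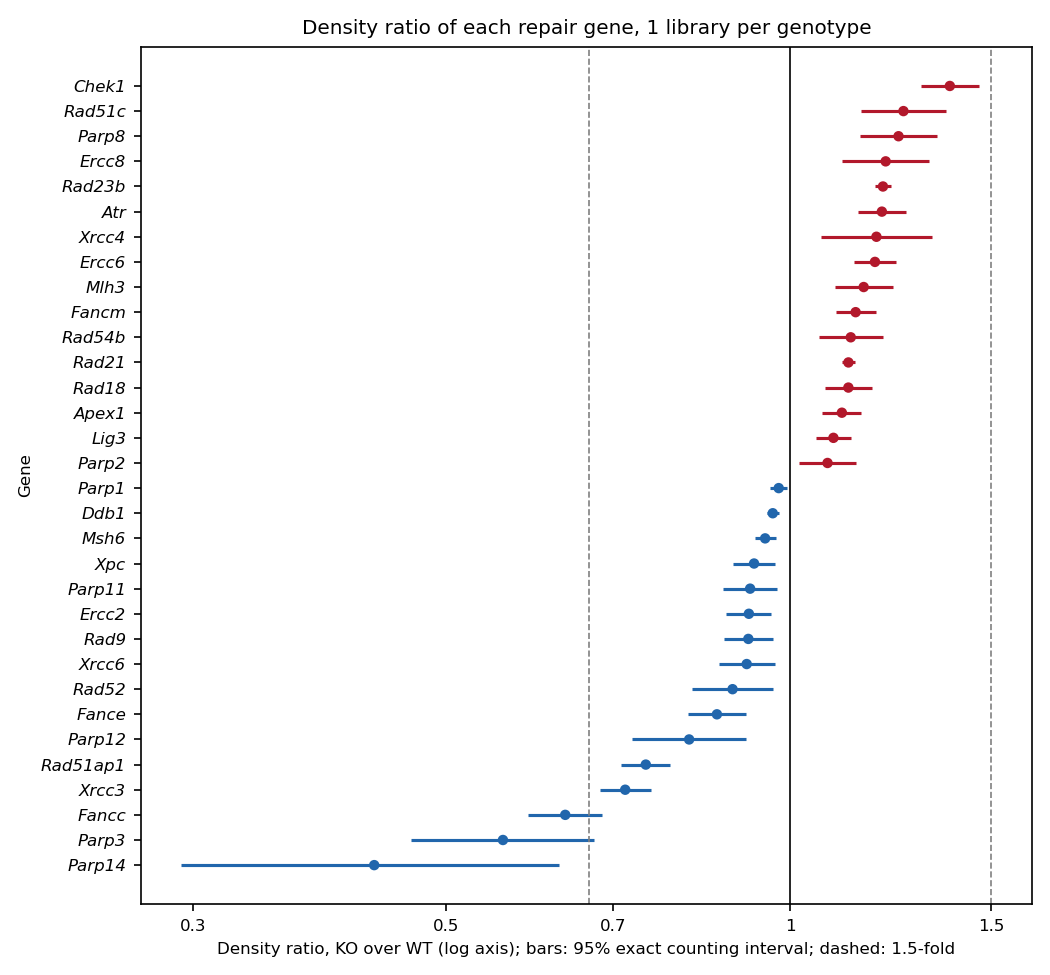
Density ratio of KO over WT for 32 of the 33 genes on a logarithmic axis, with exact 95% intervals that cover counting error only and dashed lines at 1.5-fold. Parp14, Parp3 and Fancc lie beyond the lower line and Chek1 is the highest at 1.38. No interval includes 1, which is no separate check because of the authors' p-value limit.

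Counting error was small for most of these ratios. Estimated reads per gene had a median of 3148 in WT and 2572 in KO, and ranged from 101 and 41 (Parp14) to 55921 and 50678 (Ddb1). No gene's interval included a ratio of 1. This is no separate check, since every gene had to pass the authors' p-value limit to be listed. For some genes the reads were also set from the deposited p-value. The intervals take in neither the spread between embryos nor that between library preparations.

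On the log2(RPKM + 1) scale, the differences farthest from 0 were those of Xrcc3, Fancc and Rad51ap1, lower in KO, and of Chek1, higher in KO. The 250 bases before the RefSeq start of these 4 genes are shown because they are the regulatory sequence next to the genes that differed most. They are read from the RefSeq promoter table of GRCm38.p6, 5′ to 3′, with every CCAAT box (CCAAT, or ATTGG on the other strand) in capitals.

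Xrcc3, chr12:111813880-111814129, minus strand: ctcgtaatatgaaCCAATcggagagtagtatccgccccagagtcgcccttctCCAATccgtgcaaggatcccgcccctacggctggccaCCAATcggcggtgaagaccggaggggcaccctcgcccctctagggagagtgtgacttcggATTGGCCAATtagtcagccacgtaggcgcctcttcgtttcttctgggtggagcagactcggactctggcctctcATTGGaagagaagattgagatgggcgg
Rad51ap1, chr6:126939588-126939837, minus strand: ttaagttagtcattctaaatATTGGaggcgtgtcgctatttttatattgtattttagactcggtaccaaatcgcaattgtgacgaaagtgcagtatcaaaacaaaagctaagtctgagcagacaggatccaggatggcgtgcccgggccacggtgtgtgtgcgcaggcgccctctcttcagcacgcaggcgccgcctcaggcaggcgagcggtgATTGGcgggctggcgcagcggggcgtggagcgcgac
Fancc, chr13:63431746-63431995, minus strand: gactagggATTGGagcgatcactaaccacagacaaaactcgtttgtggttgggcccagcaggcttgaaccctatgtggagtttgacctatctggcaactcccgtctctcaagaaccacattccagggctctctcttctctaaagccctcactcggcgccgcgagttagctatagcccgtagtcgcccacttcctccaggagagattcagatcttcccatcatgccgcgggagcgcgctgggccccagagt
Chek1, chr9:36726659-36726908, minus strand: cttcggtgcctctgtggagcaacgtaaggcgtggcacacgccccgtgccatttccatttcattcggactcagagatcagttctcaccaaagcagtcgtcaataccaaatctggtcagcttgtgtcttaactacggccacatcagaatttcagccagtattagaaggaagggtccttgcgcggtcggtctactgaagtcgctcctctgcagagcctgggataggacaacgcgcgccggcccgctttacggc

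Xrcc3 had 6 matches in this stretch (2 of them side by side on opposite strands), Rad51ap1 2, Fancc 1 and Chek1 0. The stretches shown for Fancc and Chek1 lie within the deposited gene spans (chromosome 13, 63304709 to 63497278, and chromosome 9, 36708482 to 36727065), so their RefSeq starts are not at the edge of those spans. Of the 33 genes, 27 have a promoter in that table, and a CCAAT box lay in 14 of them (51.9%) within 250 bases before to 50 bases after the start, against 38.0% of 6683 protein-coding listed genes. Of the 14, 8 were lower and 6 higher in KO. E2F sites (TTTCGCGC, TTTGGCGC or TTTCCCGC, on either strand) were found in 3 of the 27 (Msh6, Rad51c and Xrcc6), a share of 11.1% against 3.68% of all. The cell cycle homology element (TTTGAA or TTCGAA, on either strand) was found in 2 (Apex1 and Atr), a share of 7.41% against 13.02%. A full p53 site, searched on these windows by its consensus with up to 13 bases between its parts, was found in 0 of the 27 and in 3 of all 6683. Such matches describe letters in a window and are not binding sites.

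Among the genes of damage sensing and checkpoint signalling, the kinases were higher in KO and the clamp subunit was lower, but this contrast ended once GC content and length were corrected for, when the log2 difference was 0.10 for Chek1, -0.090 for Atr and -0.036 for Rad9. Chek1, the kinase that ATR activates (ENSMUSG00000032113, chromosome 9, 36708482 to 36727065, minus strand of GRCm38), was at 4.70 RPKM in WT against 6.48 in KO. Its ratio was 1.38 (95% interval 1.30 to 1.46) and its log2 difference 0.39, above that of 97.5% of protein-coding genes. The authors' deposited table gives it as 1.44-fold higher. Atr itself (ENSMUSG00000032409, chromosome 9, 95857597 to 95951644, plus strand) was at 4.26 and 5.12 RPKM, a ratio of 1.20 (1.15 to 1.26). Rad9, a subunit of the clamp that is loaded at damage sites (listed under an older symbol of Rad9a), was at 18.4 and 16.9 RPKM, a ratio of 0.919 (0.875 to 0.966). Its exons share 9.53% of their bases with Ppp1ca on the opposite strand, and whether counting used strand is not stated.

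Homologous recombination genes were split, with 3 of 5 lower in KO and a median log2 difference of -0.13. As 63.7% of all protein-coding genes were lower, this count is no result about the pathway. The members that differed most were lower. Xrcc3, which helps recombination filaments form and crossovers resolve (ENSMUSG00000021287, chromosome 12, 111803192 to 111813873, minus strand), was at 14.6 RPKM in WT against 10.4 in KO, a ratio of 0.717 (0.681 to 0.755). Rad51ap1, which promotes strand invasion (ENSMUSG00000030346, chromosome 6, 126923050 to 126939587, minus strand), was at 8.94 and 6.68 RPKM, a ratio of 0.747 (0.712 to 0.785). Rad52, a single-strand annealing protein, was at 4.12 and 3.66 RPKM, a ratio of 0.890 (0.820 to 0.966). Rad51c, the partner of XRCC3 in a complex, went the other way at 2.46 and 3.08 RPKM, a ratio of 1.26 (1.15 to 1.37). Rad54b, a motor protein of recombination, was at 3.44 and 3.88 RPKM, and 35.8% of its exon bases are shared with Fsbp on the same strand. So the XRCC3 and RAD51C partners differed in opposite directions between the libraries.

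The Fanconi anaemia genes, whose products unhook crosslinks between DNA strands, were lower in KO in 2 of 3 cases, a share near the 63.7% of all protein-coding genes. Fancc, a subunit of the core complex that ubiquitinates FANCD2 (ENSMUSG00000021461, chromosome 13, minus strand), was at 2.49 RPKM in WT against 1.58 in KO, a ratio of 0.635 (0.590 to 0.685). It shares 16.4% of its exon bases with the antisense gene Gm16133. Fance, another core complex subunit, was at 8.51 and 7.34 RPKM, a ratio of 0.863 (0.813 to 0.915). Fancm, the DNA translocase that brings the complex to chromatin, was higher in KO, at 6.48 and 7.39 RPKM, a ratio of 1.14 (1.10 to 1.19).

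In end joining, Xrcc6, which codes for the KU70 subunit of the complex that holds broken ends, was at 6.54 RPKM in WT against 5.99 in KO, a ratio of 0.916 (0.866 to 0.969). Xrcc4, the scaffold of DNA ligase IV, was at 1.58 and 1.88 RPKM, a ratio of 1.19 (1.06 to 1.33). In mismatch repair, Msh6, which recognises base mismatches, was at 48.2 and 45.8 RPKM, a ratio of 0.951 (0.931 to 0.971). Mlh3, which acts after mismatch recognition, was at 4.37 and 5.07 RPKM, a ratio of 1.16 (1.09 to 1.23). Once GC content and length were corrected for, the log2 differences were -0.090 for Xrcc6, -0.088 for Xrcc4, -0.068 for Msh6 and -0.029 for Mlh3. All 4 were below 0 but above the corrected median over all protein-coding genes, -0.11. As 76.7% of those genes were then lower, the shared direction is no result about these pathways.

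Nucleotide excision repair, which removes bulky adducts such as those of ultraviolet light, had 7 listed genes, of which 4 were lower in KO and 3 higher, near the 63.7% and 36.3% of all protein-coding genes, with a median log2 difference of -0.051. Rad23b, which stabilises the damage sensor XPC (chromosome 4, 55350043 to 55392237, plus strand) was at 50.6 RPKM in WT against 61.0 in KO, a ratio of 1.21 (1.19 to 1.23). Xpc, the sensor itself and a gene that p53 can activate, was at 9.33 and 8.68 RPKM, a ratio of 0.930 (0.891 to 0.970). Ddb1, an adaptor of the CUL4 ubiquitin ligase that also serves outside repair, was at 148 and 142 RPKM, a ratio of 0.965 (0.954 to 0.977).

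The helicase gene Ercc2, a subunit of transcription factor TFIIH, was lower in KO at 10.8 RPKM in WT against 9.90 in KO, a ratio of 0.920 (0.879 to 0.963). Its exons share 24.6% of their bases with Gm26852 and 17.8% with Klc3, both on the opposite strand. The genes of the branch that clears stalled RNA polymerase, Ercc6 and Ercc8, were both higher in KO. Once GC content and length were corrected for, the log2 difference was 0.012 for Ercc6 and -0.14 for Ercc8. Ercc6 was at 5.45 and 6.46 RPKM, a ratio of 1.19 (1.14 to 1.24), and Ercc8 at 1.37 and 1.66 RPKM, a ratio of 1.21 (1.11 to 1.32).

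Base excision and single-strand break repair genes were higher in KO in 3 of 5 cases, against 36.3% of all protein-coding genes, with a median log2 difference of 0.10. Parp1, the main sensor of strand breaks (chromosome 1, 180568955 to 180601253, plus strand), was at 78.3 RPKM in WT against 76.5 in KO, a ratio of 0.977 (0.960 to 0.994). Parp2, its close relative, was at 14.3 and 15.4 RPKM, a ratio of 1.08 (1.02 to 1.14). Apex1, the endonuclease that cuts at sites that have lost their base, was at 38.1 and 42.3 RPKM, a ratio of 1.11 (1.07 to 1.15), with 61.7% of its exon bases shared with Pip4p1 on the opposite strand. Lig3, which seals the nick, was at 9.19 and 10.03 RPKM, and 25.1% of its exon bases are shared with Rffl. Parp3, a PARP that responds to double-strand breaks (chromosome 9, 106470322 to 106476949, minus strand), was low in both libraries at 1.02 and 0.571 RPKM, a ratio of 0.560 (0.466 to 0.673) from 344 and 181 reads.

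Rad18, the ubiquitin ligase that switches replication to translesion polymerases, was at 6.49 RPKM in WT against 7.29 in KO, a ratio of 1.12 (1.07 to 1.18). Rad21, the cohesin subunit that holds sister chromatids together, was at 118 and 133 RPKM, a ratio of 1.12 (1.11 to 1.14). Of the 4 PARP genes outside these pathways, Parp8 was higher at 4.32 and 5.37 RPKM, a ratio of 1.24 (1.15 to 1.34), and Parp11 lower at 5.27 and 4.86 RPKM, a ratio of 0.922 (0.873 to 0.975). Parp12 and Parp14, which interferon induces in many cells, were both lower. Parp12 was at 1.92 and 1.57 RPKM, a ratio of 0.816 (0.727 to 0.914). Parp14 was at 0.119 and 0.0514 RPKM, a ratio of 0.432 (0.293 to 0.627) from 101 and 41 reads. All 7 listed interferon response genes were also lower in KO, with a summed density of 12.95 RPKM in WT against 8.52 in KO. Of these 7, 0 were over the floor and 1 was at least 1.5-fold lower. Among all protein-coding genes under the floor, 72.1% were lower and 8.71% at least 1.5-fold lower. The 11 leukocyte markers, of which 0 were over the floor, were all lower too. The part of leukocytes in the Parp12 and Parp14 values was not tested.

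Direction among the repair genes followed the base composition of their transcripts. The 16 genes that were higher in KO had a median GC content of 44.2% (range 40.8% to 51.3%), and the 17 that were lower a median of 52.6% (range 45.7% to 61.4%). The log2 difference had a Spearman rank correlation of -0.72 with GC content over the 33 genes and of -0.44 over 9323 protein-coding genes with a gene model, all from the same 2 libraries. The same correlation with exon length was 0.40 for the repair genes and 0.32 for all. With all protein-coding genes in 3 equal groups by GC content, 13 of the 17 repair genes in the group with the lowest GC were higher in KO, against 65.1% of all genes there. In the middle group 3 of 11 were higher, against 31.3%, and in the group with the highest GC 0 of 5, against 12.5%. The repair genes in each group thus had a share near that of other genes of like composition.

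**Figure D3:**
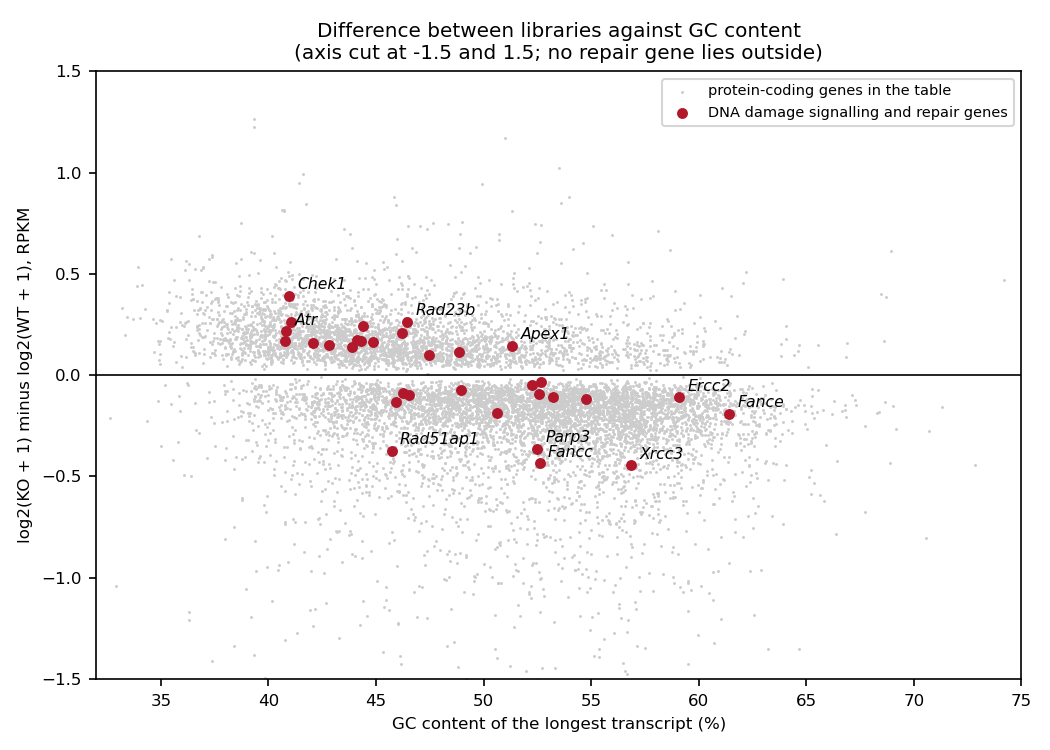
Log2 difference between KO and WT on the log2(RPKM + 1) scale against the GC content of the longest transcript, in percent, for all protein-coding genes in the table (grey) and 32 of the 33 repair genes (red). Repair genes with low GC content such as Chek1 (41.0%) lie above 0 and those with high GC content such as Fance (61.4%) and Xrcc3 (56.9%) below, as in the grey cloud; the empty band at 0 follows from the authors' p-value limit.

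To set each gene against genes of like GC content and length, the median of its GC and length bin was subtracted from its difference and the median over all genes added back. After this correction, 25 of the 33 repair genes were lower in KO and 8 higher, against 17 and 16 before, where 76.7% of protein-coding genes were then lower. The corrected median over all protein-coding genes was -0.11, so a corrected value below 0 need not lie below that of like genes. The 8 genes that changed from higher to lower were Atr, Rad54b, Rad18, Xrcc4, Fancm, Ercc8, Mlh3 and Parp8. Of these, only Ercc8, at -0.14, lay below that median. Chek1 went from a log2 difference of 0.39 to 0.10, and Atr from 0.22 to -0.090. Those higher after the correction included Apex1 at 0.23 and Rad23b at 0.20, while Rad21 was at 0.0021. No gene changed from lower to higher.

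The lower genes differed in how much they depended on the correction. Fancc was at -0.43 before and -0.44 after, Xrcc3 at -0.44 and -0.36, and Parp3 at -0.36 and -0.31. Rad51ap1, a lower gene in a class of GC content where most genes were higher, went from -0.37 to -0.55, and Rad52 from -0.13 to -0.31. The median of the 5 homologous recombination genes went from -0.13 to -0.31, while that of the 3 checkpoint genes went from 0.22 to -0.036. Over all protein-coding genes the median was -0.11 before and after, so the checkpoint median stayed above it. The recombination median is the value of Rad52, and Rad54b and Rad51c were at -0.036 and 0.076 after the correction.

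**Figure D4:**
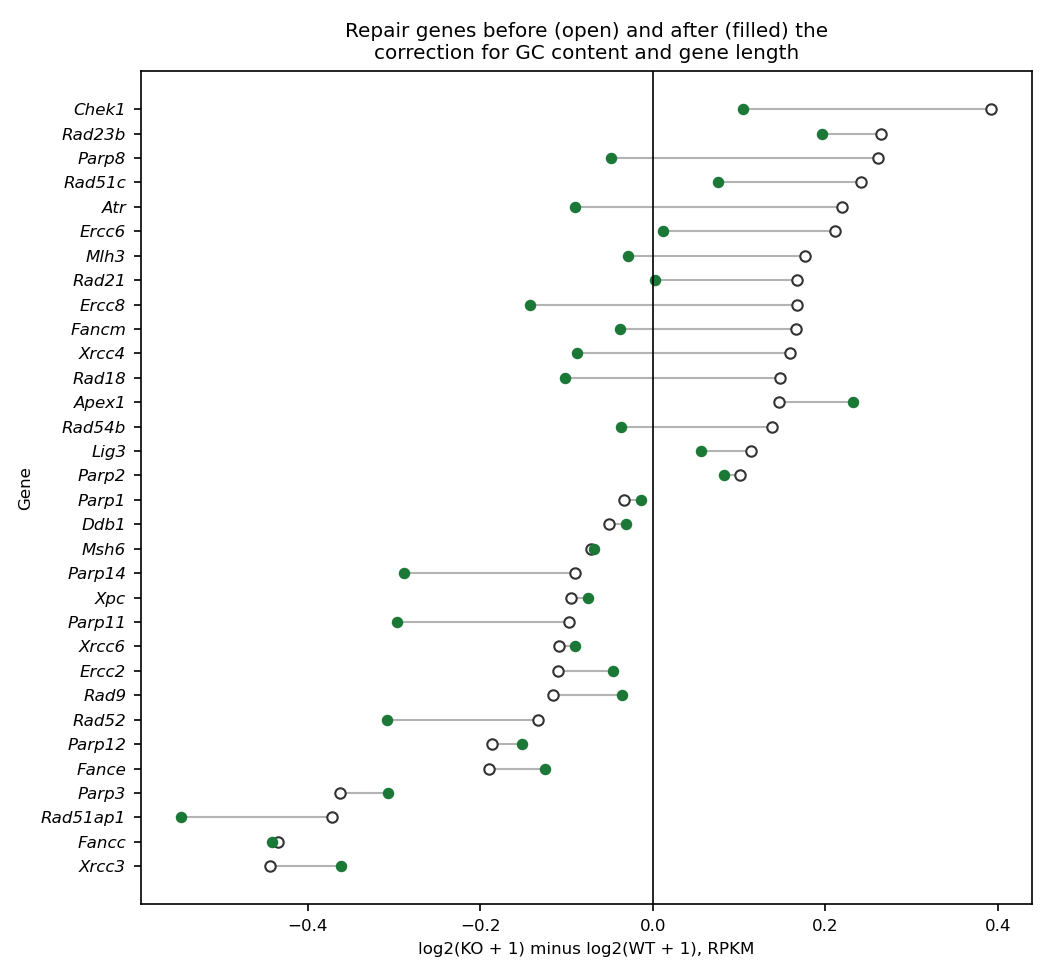
Log2 difference between KO and WT on the log2(RPKM + 1) scale for 32 of the 33 genes before (open) and after (filled) GC content and gene length were corrected for. Chek1, Atr and Parp8 move toward or past 0, Fancc stays at -0.44, and Rad51ap1 becomes the lowest at -0.55.

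Other genes of the same pathways came from a list of 85 names that leaves out the 33. Before GC content and length were corrected for, they were more often higher than lower in KO. The difference from the 33 was not tested. The table holds 42 of them, 24 higher and 18 lower, and their median log2 difference was 0.087. Among all protein-coding genes 36.3% were higher and the median was -0.11. The floor was passed by 24 of the 42, with 16 higher and 8 lower (median 0.10). Among protein-coding genes over the floor 44.4% were higher. The 15 repair genes of the 33 over the floor had 5 higher and 10 lower (median -0.072). After the correction, 29 of the 42 fell below 0 and their median was -0.086. As 76.7% of protein-coding genes were then lower (median -0.11), this count is no result about these pathways. Over the floor, the highest were Rif1, a regulator of the choice between repair pathways and of replication timing (10.7 RPKM in WT against 16.8 in KO), the Bloom helicase gene Blm (8.53 and 10.5 RPKM) and the kinase gene Wee1 (12.5 and 14.3 RPKM). Rif1 was the 1 gene of this list at least 1.5-fold higher, and its log2 difference of 0.60 was 0.29 after the correction. The lowest over the floor were Uimc1, a ubiquitin reader of the BRCA1-A complex (13.2 and 9.996 RPKM), the flap endonuclease gene Fen1 (22.5 and 17.5 RPKM) and Atrip, the partner of ATR (8.87 and 7.83 RPKM). The 1 gene at least 1.5-fold lower was Tdg, a thymine DNA glycosylase under the floor (9.72 and 2.60 RPKM), named after its values were seen. GENCODE vM21 also lists a pseudogene, Tdg-ps, and its part in this value was not tested.

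Partners of ATR and CHK1 differed in direction before GC content and length were corrected for. All 4 named here were lower after, when 76.7% of all protein-coding genes were lower, with a median of -0.11. Before, Atrip was lower, while Topbp1, the activator of ATR (33.1 and 35.7 RPKM), and Hus1, which forms the clamp with RAD9 (8.59 and 9.81 RPKM), were higher in KO. Cdc25a, a phosphatase that CHK1 targets, was at 35.2 and 38.3 RPKM. After the correction the log2 differences were -0.17 for Atrip, -0.090 for Topbp1, -0.0019 for Hus1 and -0.079 for Cdc25a. Only Atrip lay below the median over all protein-coding genes, so the shared direction is no result about these partners. Topbp1, Hus1 and Cdc25a were named after their values were seen.

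Repair genes that p53 is known to activate were divided. Of 10 names, 6 are in the table, and 3 were lower and 3 higher in KO, with a median log2 difference of 0.0042. Once GC content and length were corrected for, 4 of these 6 were lower and their median was -0.092. Over all protein-coding genes 76.7% were then lower, with a median of -0.11, so this count is no result about these genes. Rrm2b went from 0.20 to -0.11. Mgmt, which removes alkyl groups from guanine, was at 5.57 RPKM in WT against 3.64 in KO, beside Fancc and Xpc, given above. The higher genes were Rrm2b (1.56 and 1.94 RPKM), Gadd45a (7.57 and 8.42 RPKM) and Pcna, the sliding clamp of replication (59.4 and 63.9 RPKM). Of the 12 listed p53 targets of arrest and feedback, in contrast, 10 were lower in KO and 5 at least 1.5-fold lower. Their median log2 difference was -0.38. Before the correction, 63.7% of all protein-coding genes were lower and 5.59% at least 1.5-fold lower. The difference between the lists was not tested.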

How the data were processed

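Messenger RNA of sorted cells was sequenced in 1 library per genotype. The submitters' processing notes name CASAVA 1.8, Novoalign 2.08.02, FastQC and the builds GRCm38 and mm10, without saying what each was used for; the sources used here do not give counting rules or strand. The deposited columns are, per the file headers, 1 density per library (values behave as RPKM), a p-value with its corrected form, a fold change (ratio) and a signed fold, which is a score below 0 for genes lower in KO. The table holds only genes with a corrected p-value under 0.05.

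Depth was read from genes at 0 in 1 library, whose deposited folds step in whole reads (150 of 171 such genes for WT and 70 of 75 for KO, within 0.01 of a read). Of those with a gene model, 100 of 149 for WT and 48 of 67 for KO gave a depth within 0.5% of their median, and only these set the depth. Reads per gene came from density, depth and GENCODE vM21 exon length, or, where smaller, from the deposited p-value; they were whole in both libraries for 9 of the 33 genes. Exact (Clopper-Pearson) 95% intervals of the ratio treat reads as independent and cover counting error only. The measure was log2(KO + 1) minus log2(WT + 1), with no test. The correction used 10 GC bins and 4 length bins. Where a symbol had several rows, the densest row was used. Every gene the name rule finds is named except 1, which enters the counts but is not reported here; those past 0.32 on the log2 scale, the extremes of each role, and Atr, Chek1, Xpc and Parp1 are given in full, with 3 highest and 3 lowest of the other repair genes over the floor. The genes and lists were chosen with earlier results of these data known. Scripts (Python 3.11.15, scipy 1.17.1) were tested on simulated data.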

Additional observations from a re-analysis of the deposited data

How the results depend on the processing

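The median log2 difference of the repair genes, -0.033, was so close to 0 that its sign followed the setting. It was 0.038 with both libraries centred on the median of protein-coding genes over the floor, 0.024 with the scaling behind the authors' fold, 0.057 over the 6 genes at or over the 75th percentile of density, and 0.034 over the 28 genes left without cohesin and the PARP genes of other function. The number lower in KO was 10 of 15 over the floor (66.7%) and 3 of 6 at the 75th percentile, against 17 of 33 (51.5%) in the main setting. Among protein-coding genes the share lower was 55.6% over the floor, against 63.7% of all. The share lower among the repair genes thus lay below the background in the main setting and above it over the floor. The number at least 1.5-fold lower, 0, became 1 (Parp3) with a pseudocount of 0.25 RPKM and 3 on the plain ratio, an alternative chosen after seeing the data. Of the 33 single differences, 2 changed sign under centring and under the authors' scaling (Ddb1 and Parp1) and 8 when GC content and length were corrected for; 0 did under pseudocounts of 0.25 and 4 RPKM or the plain ratio. The cause was not tested. No paired analysis was possible because each genotype has 1 library, and genes that missed the authors' p-value limit are not analysed here.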

Other observations

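Genes of the cell cycle, in which many repair genes also act, differed little between the libraries. Among all protein-coding genes, 63.7% were lower in KO, and 76.7% once GC content and length were corrected for, with a corrected median of -0.11. Of 16 listed S phase genes, 10 were lower in KO, with a median log2 difference of -0.072 and none past 1.5-fold. After the correction 11 were lower, with a median of -0.095. Ccne2, cyclin E2, was at 4.45 RPKM in WT against 6.54 in KO, and its log2 difference was 0.47 before and 0.19 after the correction. Tk1, thymidine kinase, was at 9.40 and 7.59 RPKM. Of 14 genes of the G2 and M phases, 7 were lower and 7 higher, with a median of -0.0076. After the correction 12 were lower, with a median of -0.10, close to that of all protein-coding genes. Ccnb1, cyclin B1, was at 12.97 and 17.3 RPKM, and its log2 difference was 0.39 before and 0.23 after the correction. Aurkb, a mitotic kinase, was at 20.05 and 18.04 RPKM. These genes were named after their values were seen.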
